A study of Mus musculus with 12 samples.

Results

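The Bcl2 family is the group of proteins that decides whether the outer membrane of the mitochondrion stays closed or is opened during cell death. Its transcripts were followed in mouse CD4+ T cells through 10 genes, taken by gene name from the deposited expression table of 32285 genes. Each of the 10 names had 1 row in that table. The family falls into 3 roles: Bcl2, Bcl2l1 (which encodes BCL-XL), Mcl1 and Bcl2a1b (which encodes a form of A1) protect the cell, Bax and Bak1 encode the proteins that form pores in the membrane, and Bcl2l11 (BIM), Bad, Bid and Bmf encode BH3-only proteins, which bind the protectors or trigger the pore formers.

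The cells were naive CD4+ T cells, sorted from C57BL/6 spleens and lymph nodes and kept in 1640 medium with antibodies to CD3 and CD28, which stand in for antigen and costimulation, and their RNA was sequenced. The 12 libraries formed 5 groups: wild type at 0 h (3 libraries), wild type at 48 h (3 libraries) and Mettl3-/- at 0 h (2 libraries, numbered 1 and 3) in a set named after Mettl3, and wild type at 0 h (2 libraries) and Nudt21-/- at 0 h (2 libraries) in a set named after Nudt21. METTL3 is the catalytic subunit of the enzyme that methylates adenosines in messenger RNA, and NUDT21 belongs to the cleavage machinery that picks the site at which the 3′ end of a transcript is made. The promoter that drives the deletion, the deleted exons and whether animals were pooled are not given in the sources used here, nor is the number of animals behind a group. The spread that the p-values measure is that of the libraries, which may be technical.

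Naive T cells live on low levels of cytokine and self-peptide signals, and BCL2 and MCL1 are the protectors they are known to need. Stimulated T cells are known to bring in BCL-XL and A1, which are induced through costimulation and NF-κB. BIM binds all of the protectors, and its balance with BCL2 is a textbook setter of the lifespan of naive and shrinking T-cell populations. BAX and BAK can each open the membrane, and cytochrome c released through it switches on the caspases.

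The 4 protector genes lie on 4 chromosomes of the mm10 genome, given here with the coordinates of the GENCODE M21 annotation: Bcl2 (ENSMUSG00000057329) at chr1:106538178-106714274 on the minus strand, Bcl2l1 (ENSMUSG00000007659) at chr2:152780668-152831728 on the minus strand, Mcl1 (ENSMUSG00000038612) at chr3:95658788-95663176 on the plus strand and Bcl2a1b (ENSMUSG00000089929) at chr9:89199209-89207827 on the plus strand. The pore formers lie at chr7:45461697-45466898 on the minus strand (Bax, ENSMUSG00000003873) and chr17:27019810-27029009 on the minus strand (Bak1, ENSMUSG00000057789). The BH3-only genes lie at chr2:128126038-128162547 on the plus strand (Bcl2l11, ENSMUSG00000027381), chr19:6941861-6951899 on the plus strand (Bad, ENSMUSG00000024959), chr6:120891930-120916853 on the minus strand (Bid, ENSMUSG00000004446) and chr2:118528757-118549687 on the minus strand (Bmf, ENSMUSG00000040093). All 10 are protein coding, and 3 of them (Bcl2l1, Bcl2l11 and Bmf) share chromosome 2.

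Sequence is shown first for the A1 genes, because Bcl2a1b, Bcl2a1a and Bcl2a1d are near-identical copies on chromosome 9 whose transcripts moved together below. The 60 bases shown lie upstream of each start in the RefSeq promoter table (GRCm38.p6), at chr9:89199065-89199124 (plus strand) for Bcl2a1b, chr9:88956756-88956815 (plus strand) for Bcl2a1a and chr9:88731949-88732008 (minus strand) for Bcl2a1d. The 3 stretches differed from each other at 0 bases. The capitals mark a match to TGANTCA, a loose AP-1-like pattern in which N stands for any base. In all 3 stretches that base is A, so the match is to the loose pattern only, and binding of AP-1 was not tested.
Bcl2a1b: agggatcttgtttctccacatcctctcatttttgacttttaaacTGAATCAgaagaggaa
Bcl2a1a: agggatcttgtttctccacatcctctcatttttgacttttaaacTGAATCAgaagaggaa
Bcl2a1d: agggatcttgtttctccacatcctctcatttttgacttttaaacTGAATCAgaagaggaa

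The likeness runs through the transcripts as well: of the 768 windows of 50 bases in the Bcl2a1b transcripts, 608 (79.2%) were found letter for letter in the transcripts of another gene. Bcl2a1d held 57.6% of them, the overlapping gene Gm29094 held 46% and Bcl2a1a held 41.1%. How the authors' counting divided such reads is not given in the sources used here, so the level of Bcl2a1b, and its split from Bcl2a1a and Bcl2a1d, is uncertain. Of the other members, Bcl2l1, Mcl1 and Bmf shared 0% of their windows and Bcl2l11 shared 0.135%. Shared windows made up 17.2% in Bad (with Gpr137 on the opposite strand), 17.1% in Bak1 (with Ggnbp1, opposite strand), 16.4% in Bid (with Bcl2l13, opposite strand), 8.51% in Bax (with Gm45808, same strand) and 5.25% in Bcl2, mostly with an antisense gene. The strand setting of the counting is not given in the sources used here, so reads of these overlaps cannot be told apart.

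For 4 members whose level moved in a comparison below, the upstream stretch that holds a motif of a factor known from T cells is shown, with the motif in capitals. For Bcl2 it is chr1:106714404-106714523 (minus strand) with 4 GC boxes (GGGCGG). For Bcl2l1 it is chr2:152830938-152830967 (minus strand) with a match to the κB consensus. This Bcl2l1 stretch is upstream of a RefSeq start but inside the GENCODE bounds of the gene given above. For Bcl2l11 the stretch is chr2:128125791-128125850 (plus strand) with the FOXO core GTAAACA, and for Bax chr7:45466899-45466958 (minus strand) with the E-box CACGTG.
Bcl2: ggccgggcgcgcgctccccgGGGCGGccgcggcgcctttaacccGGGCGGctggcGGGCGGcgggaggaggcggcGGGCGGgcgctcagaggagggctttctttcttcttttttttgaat
Bcl2l1: tgtttgtgGGGGGTCTCCagcatacgcctc
Bcl2l11: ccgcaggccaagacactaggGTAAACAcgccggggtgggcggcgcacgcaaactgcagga
Bax: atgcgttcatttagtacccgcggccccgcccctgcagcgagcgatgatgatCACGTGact

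Both strands were searched in the RefSeq window from 250 bases before to 50 bases after each start, and the G-rich ends of a κB match and a GC box can overlap. Over all 32851 promoters of this length, 3.65% held GTAAACA, 7.15% held CACGTG, 7.81% held TGANTCA, 8.46% held the κB consensus and 35.7% held GGGCGG. Of the 30 promoters of the family and its relatives, GGGCGG was in 20, the κB consensus in 4, TGANTCA in 3 (the A1 genes above), GTAAACA in 2 and CACGTG in 2. The STAT motif TTCNNNGAA was in 0 of the 30 and in 8.3% of all promoters. These are matches of letters in a window and describe no binding.

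The values were FPKM, fragments scaled to transcript length and to the fragments mapped, and so allow levels of different genes to be set side by side. Their sum per library ran from 345621 to 386983. The protocol states more than 100000000 reads per sample, while the number of reads behind each value is unknown. The targeted genes checked the labels: Mettl3 was at 26.9 ± 1.70 FPKM (SD, n = 3) in resting wild type and 5.90 ± 0.774 (n = 2) in Mettl3-/-, and Nudt21 fell from 17.5 ± 0.856 (n = 2) in wild type to 7.13 ± 0.623 (n = 2) in Nudt21-/-. In the Nudt21 set Mettl3 was at 34.15 ± 0.385 FPKM in wild type and 27.6 ± 2.16 in Nudt21-/- (n = 2 each). Nudt21 was at 18.1 ± 1.12 FPKM (n = 3) in the Mettl3 set's resting wild type and 17.5 ± 0.377 (n = 2) in Mettl3-/-. At 48 h Mettl3 was at 15.6 ± 0.691 FPKM and Nudt21 at 31.8 ± 0.715 (n = 3 each). Summed over 7 CD4 T-cell markers the libraries held 1154 to 2232 FPKM, and none of these markers was at 0 in any library. Markers of other cells were low in the Mettl3 set except in the library Mettl3-/- 3, and higher in the Nudt21 set. The 8 myeloid markers summed to 0.302 to 6.68 FPKM in the wild types of the Mettl3 set, 1.62 in Mettl3-/- 1, 324 in Mettl3-/- 3, 33.6 and 81.4 in the Nudt21 set's wild type, and 187 and 283 in Nudt21-/-. The 7 B-cell markers gave 2.95 to 6.20, 2.47 (with Pax5 at 0), 27.5, 26.5 and 41.8, and 79.6 and 135 FPKM in the same order. The correlation between the 2 Mettl3-/- libraries was 0.9252 over the genes tested, against 0.9906 to 0.9974 within the other groups.

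Changes were estimated with limma on log2(FPKM + 1) in 1 model of all 12 libraries over the 12511 genes that reached 1 FPKM in at least 2 libraries, a filter that all 10 members passed. A change is a difference of group means on that scale, given with its standard error (SE), and it understates the change of low genes. A gene was taken to have changed where its p, after Benjamini-Hochberg adjustment across those 12511 genes, was under 0.05. Because the cells were measured in bulk, fewer cells with a transcript and less of it per cell cannot be told apart. Since FPKM divides by 1 length per gene, a shift in 3′ end choice and a change in transcript number cannot be told apart either.

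In resting wild type cells the protector pool was mostly Mcl1. Mcl1 stood at 201, 184 and 199 FPKM in the 3 libraries of the Mettl3 set and at 183 and 172 in the Nudt21 set, the highest level of any member. Bax came next at 69.1, 64.6 and 59.95 FPKM and at 110.5 and 104 FPKM, followed in the Mettl3 set by Bcl2 (36.7, 30.9 and 37.8 FPKM). Bcl2l11 (25.3 ± 4.46 FPKM, SD, n = 3) and Bak1 (18.9 ± 0.541 FPKM) formed the next step. Bid (9.87 ± 0.743), Bcl2a1b (9.73 ± 0.716), Bcl2l1 (7.30 ± 0.744) and Bad (6.93 ± 1.08 FPKM) followed. The libraries of Bid and Bcl2a1b overlapped, as did those of Bcl2l1 and Bad, so these 2 pairs of neighbours did not differ beyond their spread. Bmf was last at 0.606, 1.24 and 1.69 FPKM, below every library of every other member. In the Nudt21 set Bak1 (26.2 and 26.9 FPKM) lay above Bcl2 (25.5 and 23.5 FPKM), while the first and last places were the same.

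**Figure D1:**
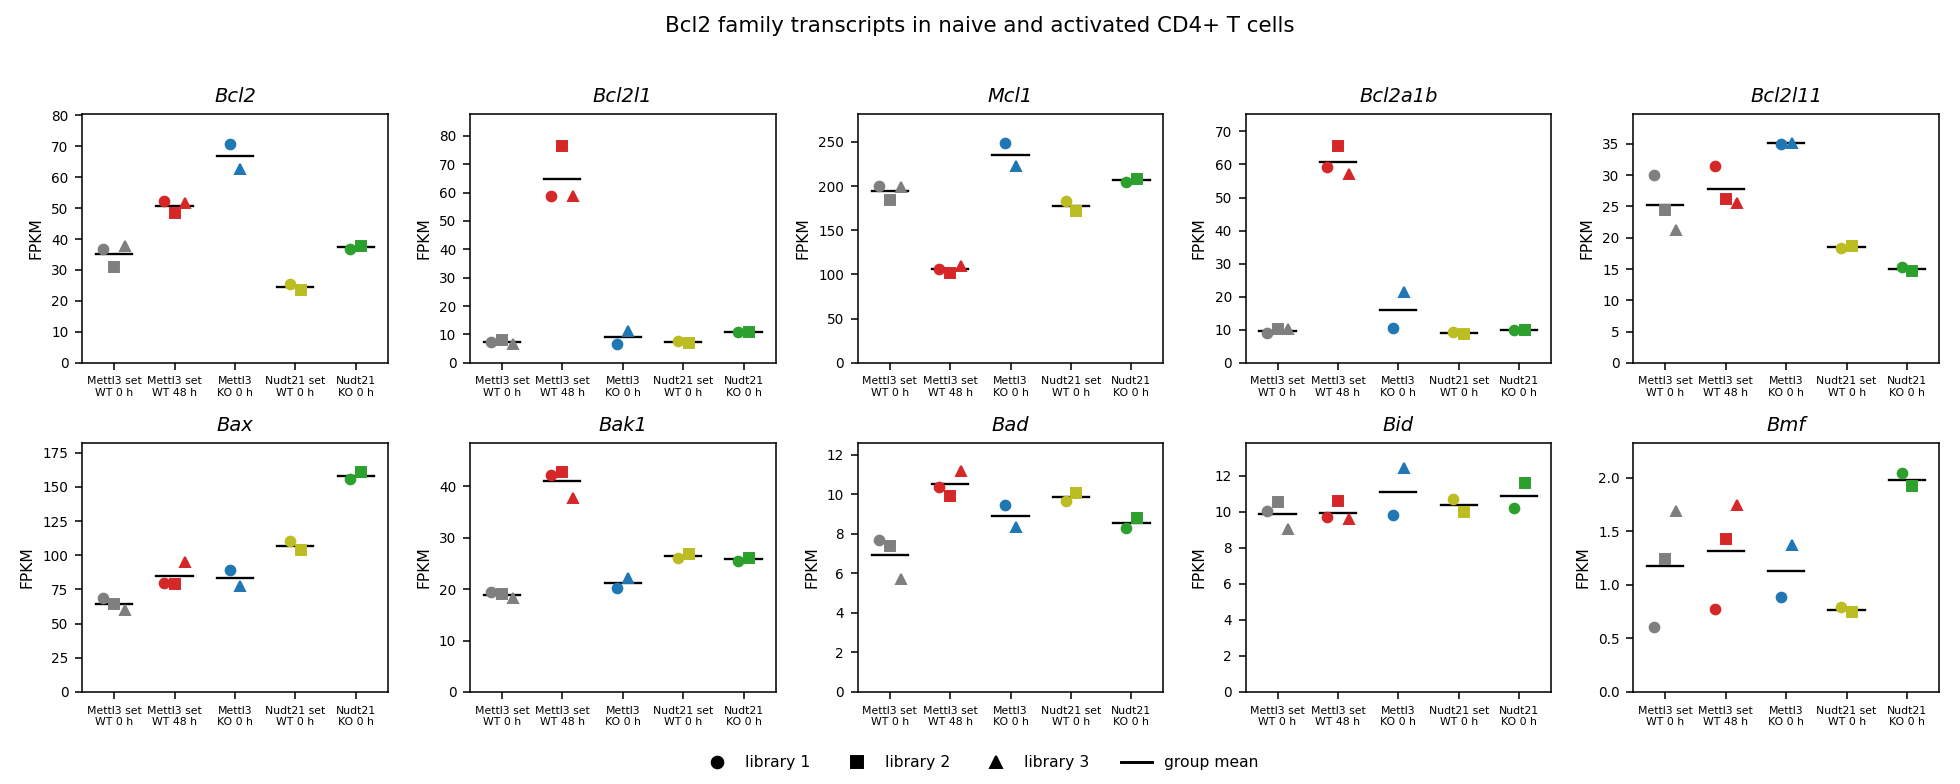
FPKM (linear axes from 0, one scale per panel) of the 10 Bcl2 family genes in each of the 12 libraries by group, with the group mean as a line. At 48 h Bcl2l1 and Bcl2a1b sit between 57.1 and 76.4 FPKM, and Mcl1 sits between 102 and 110 FPKM, below every resting library.

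Which protector transcripts were abundant differed between 0 h and 48 h. The libraries include no unstimulated cells at 48 h, so stimulation and time in culture cannot be told apart. Stimulation is used here as the name of this comparison. Bcl2l1 and Bcl2a1b rose, Mcl1 fell, Bcl2 rose by less, and both pore formers rose with Bad. In all, 6 of the 10 members rose and 1 fell, while 78.5% of all genes tested changed (43.6% rose and 34.9% fell), so the count by itself is near the background. The median change was 0.45 over the members and 0.07 over all genes. The 6 markers of naive T cells, such as Ccr7 and Lef1, summed to 1530 to 1713 FPKM at 0 h and 614 to 678.5 FPKM at 48 h, and the 7 CD4 T-cell markers to 1614 to 1783 and 1154 to 1188 FPKM.

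Bcl2l1, the gene of BCL-XL, went from 7.44, 7.96 and 6.49 FPKM at 0 h to 59.0, 76.4 and 58.8 FPKM at 48 h. The 2 groups were far apart, and the log2 change was 2.98 (SE 0.16, adjusted p = 7.5e-08). Bcl2a1b, the A1 gene, moved alike, from 8.91, 10.1 and 10.2 FPKM to 59.2, 65.7 and 57.1 FPKM (log2 change 2.52, SE 0.19, adjusted p = 7.81e-07). At 48 h the levels of the pair overlapped between libraries.

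Mcl1, whose protein is short-lived and is needed by T cells at rest, went the other way. Its 48 h libraries held 107, 102 and 110 FPKM, all below the lowest resting library at 184 FPKM, and the log2 change was -0.87 (SE 0.06, adjusted p = 3.6e-07). It was still the most abundant member at 48 h. Bcl2 rose from 36.7, 30.9 and 37.8 to 52.4, 48.3 and 51.6 FPKM, with no overlap between the times (log2 change 0.52, SE 0.08, adjusted p = 0.000138).

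Of the pore formers, Bak1 held 19.4, 19.0 and 18.3 FPKM at rest and 42.3, 42.9 and 37.8 FPKM at 48 h, a log2 rise of 1.08 (SE 0.06, adjusted p = 7.32e-08). Bax changed less, from between 59.95 and 69.1 to between 79.0 and 95.1 FPKM (log2 change 0.38, SE 0.09, adjusted p = 0.00203). Both genes had separate ranges at the 2 times.

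Among the BH3-only genes Bad alone passed the test in this fit. Bad, whose protein is held inactive by phosphorylation downstream of growth signals, went from 7.70, 7.41 and 5.69 FPKM to 10.4, 9.92 and 11.2 FPKM (log2 change 0.54, SE 0.10, adjusted p = 0.00053). Bcl2l11 overlapped between the times, at 30.1, 24.4 and 21.3 FPKM and 31.6, 26.2 and 25.5 FPKM (log2 change 0.14, 95% interval -0.12 to 0.39, adjusted p = 0.295). Its resting library 1 was the highest of the 3, and without that library the change was 0.26 with an adjusted p of 0.0279. Bid, which caspase-8 cuts to link death receptors to the mitochondrion, had a change of 0.01 (95% interval -0.19 to 0.22). Bmf, whose protein is held on the cytoskeleton, had a change of 0.10 (95% interval -0.36 to 0.56) at levels under 2 FPKM. The other 7 calls held in each alternative tried.

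**Figure D2:**
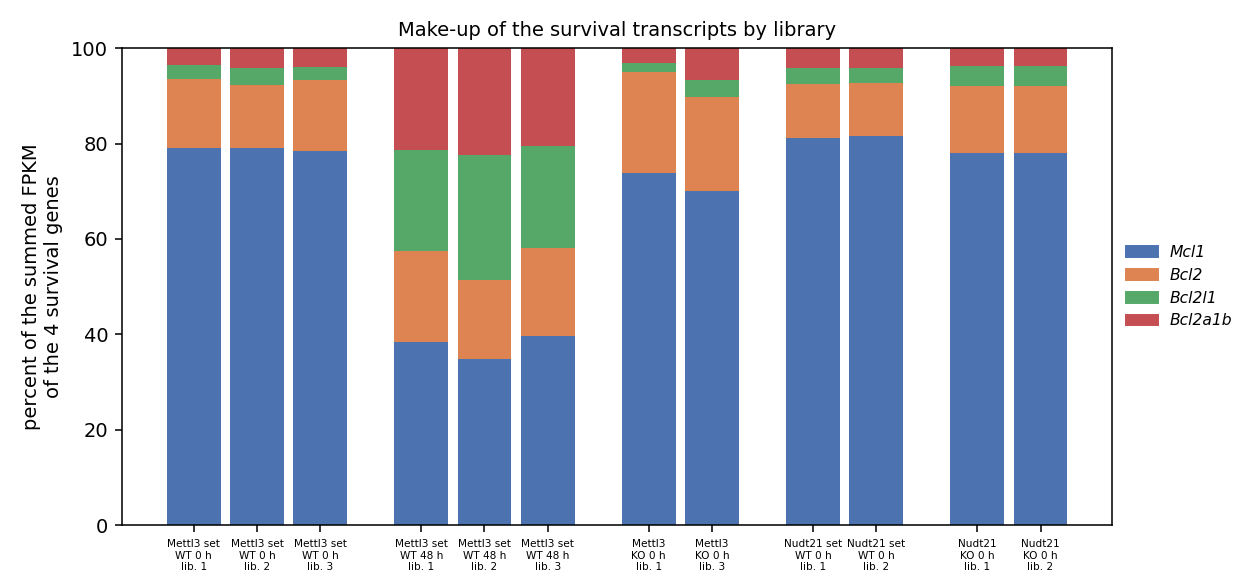
Percent of the summed FPKM of Bcl2, Bcl2l1, Mcl1 and Bcl2a1b that each gene held, 1 bar per library. Mcl1 holds 78.5 to 81.5% in the 5 resting wild type libraries and 34.9 to 39.6% in the 3 libraries at 48 h.

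The make-up of the protector pool shows this in each library. In the resting wild types of the Mettl3 set Mcl1 held 79.1, 79 and 78.5% of the summed FPKM of the 4 protectors, Bcl2 13.3 to 14.9%, Bcl2a1b 3.51 to 4.34% and Bcl2l1 2.57 to 3.42%. At 48 h the same pool was 34.9 to 39.6% Mcl1, 21.2 to 26.1% Bcl2l1, 20.6 to 22.5% Bcl2a1b and 16.5 to 18.9% Bcl2. The sum of these 4 genes was 233 to 254 FPKM at rest and 277 to 293 FPKM at 48 h. It leaves out the protector gene Bcl2l2 and the A1 copies Bcl2a1a and Bcl2a1d, which were higher at 48 h (below). The share of Bcl2a1b rests on a level that is uncertain, as said above. These shares describe transcripts and were not tested.

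Of the 14 other family genes, 9 passed the filter on low values, and 43.6% of all genes rose. Bcl2a1d, the A1 copy shown above, went from 1.49, 1.71 and 1.59 to 22.9, 29.99 and 18.8 FPKM (log2 change 3.24, SE 0.32, adjusted p = 6.55e-06). Bcl2a1a, the third copy, went from between 0.562 and 0.727 to between 3.07 and 5.42 FPKM (log2 change 1.66). Shared reads could carry the change of 1 A1 copy to another, so the rises of these copies cannot be counted as separate. Bcl2l2, which encodes the protector BCL-W, rose from 1.26, 0.973 and 0.748 to 8.40, 7.29 and 9.36 FPKM (log2 change 2.23, SE 0.15, adjusted p = 3.1e-07).

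Lower in level, the BH3-only gene Bik was at 0.739 ± 0.173 and 1.88 ± 0.145 FPKM and Bcl2l14 at 0.457 ± 0.121 and 1.73 ± 0.286 FPKM (SD, n = 3 each). These 2 genes reached 1 FPKM only in the 3 libraries at 48 h and were tested only because they are high there, so their calls support nothing. Pmaip1, the BH3-only gene of NOXA, which antagonises MCL1, went from 0.719 ± 0.135 to 1.66 ± 0.145 FPKM (log2 change 0.63, adjusted p = 0.0124; 0.30 and 0.092 with quantile normalization). Bcl2l12 rose by 0.49 from 14.8 ± 0.886 FPKM. Bcl2l13 stood at 10.8 ± 0.179 and 12.03 ± 0.331 FPKM, and its rise of 0.14 was not kept with quantile normalization, which gave -0.0043, nor with TPM or median-ratio scaling, nor without 48 h library 1 (0.12, adjusted p = 0.0744). Bbc3, the gene of the p53 target PUMA, scattered at rest (60.2, 28.1 and 16.9 FPKM) and did not pass (log2 change -0.29, 95% interval -1.17 to 0.59). Bok, Bcl2l15, Bcl2l10, Hrk and Bcl2a1c stayed under 1 FPKM in all 12 libraries.

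**Figure D3:**
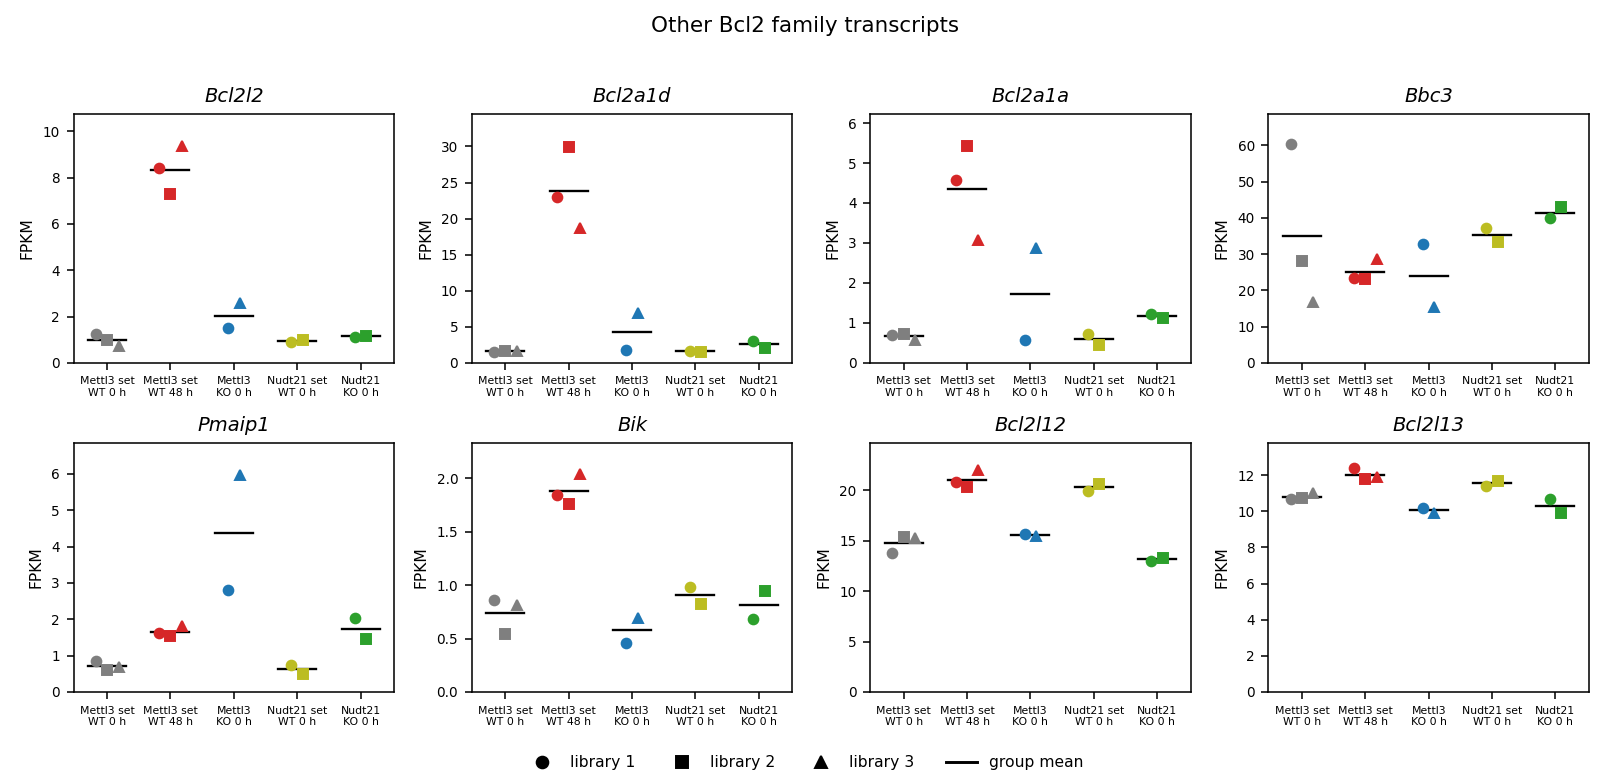
FPKM (linear axes from 0) of 8 other Bcl2 family genes in each library, with the group mean as a line. Bcl2l2, Bcl2a1d and Bcl2a1a are highest at 48 h, Pmaip1 is highest in Mettl3-/- (2.81 and 5.96 FPKM), and Bcl2l12 is lowest in Nudt21-/- (13.0 and 13.3 FPKM).

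Behind the membrane, 11 of the 15 genes of the downstream death machinery rose at 48 h and 0 fell, a share changed near the 78.5% of all genes. The channel gene Vdac1 went from 34.9 ± 1.32 to 159 ± 4.64 FPKM and Vdac2, whose protein binds BAK, from 59.5 ± 1.40 to 98.8 ± 3.22 FPKM. Aifm1 (apoptosis-inducing factor) and Endog (endonuclease G) rose by 1.22 and 1.28 on the log2 scale. Of 28 regulators and partners of the members, 15 rose and 8 fell, again near that share. Foxo1, whose protein is a transcription factor of quiescent T cells, fell from 57.3 ± 3.86 to 16.2 ± 0.300 FPKM, and Il7r, the receptor for the survival cytokine IL-7, fell from 164 ± 29.8 to 4.58 ± 1.62 FPKM. Stat5a (26.8 ± 0.590 to 77.2 ± 3.23 FPKM) and Pim2 (35.9 ± 4.49 to 167 ± 6.71 FPKM), a kinase that phosphorylates BAD, rose.

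In resting Mettl3-/- cells the largest change in the family's 10 members was that of Bcl2. Of the 10 members 4 rose (Bcl2, Mcl1, Bcl2l11 and Bax) and 0 fell, where 28.9% of all genes changed (16.8% rose and 1507 genes fell). The median change of the members was 0.30, against 0.04 over all genes. Without knockout library 3, which held the markers of other cells given above, 3 members passed, and without knockout library 1, 5 passed. The 7 CD4 T-cell markers moved as well: they summed to 1614 to 1783 FPKM in the wild type and to 1310 and 1337 FPKM in the 2 knockout libraries, and 5 of the 7 fell. Their part in the changes of the members was not tested.

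Bcl2 held 36.7, 30.9 and 37.8 FPKM in the wild type and 70.8 and 62.6 FPKM in the 2 Mettl3-/- libraries, with no overlap (log2 change 0.91, SE 0.09, 95% interval 0.71 to 1.11, adjusted p = 0.000209). Both knockout libraries lay above the wild type cells at 48 h as well, which held 48.3 to 52.4 FPKM. Both libraries showed it, with 0.82 in library 3 and more in library 1, and the call held in all 22 alternatives.

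Mcl1 was at 249 and 222 FPKM in Mettl3-/- against 201, 184 and 199 FPKM (log2 change 0.28, SE 0.07, adjusted p = 0.0124). Bax was at 89.5 and 77.5 FPKM against 69.1, 64.6 and 59.95 FPKM (log2 change 0.37, SE 0.10, adjusted p = 0.0189). Neither gene overlapped between the genotypes, and neither did Bak1, which did not pass (log2 change 0.15, adjusted p = 0.0975). The calls of Mcl1 and Bax were lost without knockout library 1, where the changes were 0.19 for Mcl1 and 0.26 for Bax.

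Bcl2l11, the gene of BIM, was at 35.0 and 35.2 FPKM in the 2 knockout libraries, above the wild type range of 21.3 to 30.1 FPKM (log2 change 0.47, SE 0.13, adjusted p = 0.022). It missed the threshold without wild type library 2 (0.45, adjusted p = 0.0536) or knockout library 3 (0.47, adjusted p = 0.0674). With the replicate number as a block Bcl2 and Bcl2l11 were still past the threshold, while Bax (adjusted p = 0.0768) and Mcl1 (adjusted p = 0.0501) were not. In a fit of only the 2 groups compared, Bcl2 alone passed, with adjusted p of 0.0979 for Mcl1, 0.0571 for Bax and 0.0764 for Bcl2l11.

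The 2 knockout libraries differed from each other in the protectors of activated cells. Bcl2a1b was at 10.6 FPKM in library 1, near the wild type values of 8.91 to 10.2 FPKM, and at 21.5 FPKM in library 3 (log2 change 0.59, 95% interval 0.12 to 1.06, adjusted p = 0.0625). Bcl2l1 was at 6.76 and 11.2 FPKM, on either side of the wild type range of 6.49 to 7.96 FPKM (log2 change 0.23, adjusted p = 0.343). Set against the wild type mean on the log2 scale, library 3 alone lay at 1.07 for Bcl2a1b, 0.56 for Bcl2l1 and 0.30 for Bid, and library 1 alone at 0.11, -0.09 and -0.01. Each of these is the value of a single library. Library 3 is the one in which the 8 myeloid markers summed to 324 FPKM, with S100a8 at 74.7 and Lyz2 at 91.8 FPKM, while library 1 had S100a8 at 0 and Lyz2 at 0.103 FPKM. The 6 CD8 T and NK cell markers summed to 32.5 FPKM in library 1 and 141 in library 3. The part of these markers in the values of Bcl2a1b, Bcl2l1 and Bid was not tested. Bcl2 was at 70.8 FPKM in library 1, where S100a8 and Pax5 were at 0, and at 62.6 FPKM in library 3.

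Of the remaining members, Bad was at 9.47 and 8.36 FPKM in Mettl3-/- against 5.69 to 7.70 FPKM (log2 change 0.33, 95% interval 0.08 to 0.58, adjusted p = 0.0502), and it passed in 4 alternatives. Without wild type library 1 it was 0.40 with an adjusted p of 0.0386. Bak1 (0.15, adjusted p = 0.0975), Bid (0.15, adjusted p = 0.287) and Bmf (-0.01, adjusted p = 0.973) did not pass either.

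Outside the 10 members the BH3-only gene Pmaip1 had the largest change of the family in Mettl3-/- cells. It was at 0.863, 0.595 and 0.698 FPKM in the wild type and at 2.81 and 5.96 FPKM in the knockout (log2 change 1.59, SE 0.22, adjusted p = 0.000966), and it was past the threshold in each alternative tried. Both knockout libraries were above every other library of the study, although library 3, with its higher markers of other cells, was the higher of the pair. Bcl2l2 went from between 0.748 and 1.26 to 1.49 and 2.58 FPKM (log2 change 0.59, adjusted p = 0.025; 0.33 and 0.163 without Mettl3-/- 3). The call was lost in 8 alternatives, among them those without wild type library 2 (adjusted p = 0.0539) or 3 (adjusted p = 0.0636). The other 7 tested relatives did not pass, Bcl2a1d (1.74 and 6.92 FPKM) and Bcl2a1a (0.572 and 2.88 FPKM) being high in library 3 like Bcl2a1b.

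Downstream of the members 2 of 15 genes rose and 2 fell in Mettl3-/-, near the 28.9% of all genes that changed. Birc3, an inhibitor of apoptosis induced by NF-κB, rose from 51.7 ± 5.08 to 84.2 ± 14.8 FPKM. Endog rose by 0.36 and Diablo (SMAC) had a change of -0.24. The Diablo call was lost without Mettl3-/- 3 (-0.25, adjusted p = 0.0556) and with the replicate block (-0.22, adjusted p = 0.0561). Casp9, the initiator caspase that cytochrome c switches on through APAF1, was at 6.32 ± 0.0618 and 5.41 ± 0.0687 FPKM (log2 change -0.19, adjusted p = 0.0331). That call was lost with the replicate block (adjusted p = 0.104), with library weights (0.254), in the fit of only the 2 groups compared (0.214), and without any 1 library other than those of Nudt21-/- (0.0509 to 0.141). Among the 28 regulators 4 rose and 2 fell, which is below that share. Pim1, a survival kinase, rose from 80.5 ± 3.60 to 128 ± 6.70 FPKM (log2 change 0.66, adjusted p = 0.000125), Bcl3 from 27.6 ± 4.36 to 54.1 ± 8.84 FPKM, and Fbxw7, a ubiquitin ligase subunit that targets MCL1, from 7.20 ± 0.229 to 9.23 ± 0.198 FPKM. Ywhaz, a 14-3-3 protein that binds phosphorylated BAD, had a change of -0.25 (adjusted p = 0.0122; -0.19 and 0.0632 without Mettl3-/- 1, and -0.23 and 0.0519 with the replicate block). In the fit of only the 2 groups compared, Endog, Diablo, Fbxw7 and Ywhaz had adjusted p of 0.0655 to 0.0865, with library weights 0.0945 to 0.162, and quantile normalization put Fbxw7 at 0.18 (adjusted p = 0.0858).

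Resting Nudt21-/- cells also had more Bcl2 and more Bax. Of the 10 members 3 rose (Bcl2, Bax and Mcl1) and 0 fell, where 27.8% of all genes changed and, unlike in Mettl3-/-, most of those were lower (8.73% rose and 19.0% fell). The median change was 0.17 over the members and -0.05 over all genes. Bcl2 went from 25.5 and 23.5 to 36.9 and 37.8 FPKM (log2 change 0.59, SE 0.10, 95% interval 0.37 to 0.80, adjusted p = 0.00273). Bax went from 110.5 and 104 to 156 and 161 FPKM, the highest Bax levels of the study (log2 change 0.56, SE 0.10, adjusted p = 0.00483). Both calls held in all 22 alternatives, and the knockout libraries lay above the wild type ones without overlap. With 2 libraries in each group non-overlap says little, as those of Bak1 did not overlap either (log2 change -0.04, adjusted p = 0.733).

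Mcl1 was at 183 and 172 FPKM without the deletion and at 205 and 208.4 FPKM in Nudt21-/- (log2 change 0.22, SE 0.07, adjusted p = 0.0477). This call was lost in 13 of 22 alternatives. Leaving out any 1 Nudt21-set library gave adjusted p between 0.0919 and 0.242, leaving out any 48 h library gave 0.0596 to 0.0744, leaving out wild type library 1 or 3 of the resting Mettl3 set gave 0.0541 or 0.0579, and quantile normalization gave a change of 0.05 (adjusted p = 0.641).

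Bmf had the largest estimate of the 10 in Nudt21-/-, from 0.797 and 0.744 to 2.05 and 1.92 FPKM (log2 change 0.75, 95% interval 0.19 to 1.32, adjusted p = 0.0508). The groups did not overlap, which says little with 2 libraries in each. In 10 alternatives the change was past the threshold, among them the fit of only the 2 groups (adjusted p = 0.00296). The others included those without resting wild type library 1 or 3 of the Mettl3 set (0.0282 and 0.0397), 48 h library 1 (0.0411) or either Mettl3-/- library. Bcl2l1 was at 7.78 and 6.96 against 10.9 and 10.8 FPKM (log2 change 0.51, 95% interval 0.07 to 0.94, adjusted p = 0.0818). It passed in 5 alternatives, including those without Mettl3-/- 1 (0.0128) or 3 (0.0126).

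Bcl2l11 had an estimate below 0, from 18.4 and 18.8 to 15.3 and 14.7 FPKM (log2 change -0.29, 95% interval -0.60 to 0.02, adjusted p = 0.147). It passed in the fit of only the 2 groups compared (adjusted p = 0.0138). Bad (-0.19, 95% interval -0.46 to 0.08), Bak1 (-0.04, -0.19 to 0.12), Bid (0.07, -0.19 to 0.32) and Bcl2a1b (0.13, -0.39 to 0.65) did not pass. Markers of other cells were higher in Nudt21-/- than in its wild type: the myeloid sum went from 81.4 and 33.6 to 187 and 283 FPKM and the B-cell sum from 41.8 and 26.5 to 79.6 and 135 FPKM, with 4 of 7 B-cell markers and 1 of 8 myeloid markers past the threshold. The 6 CD8 T and NK cell markers went from 34.3 and 26.5 to 88.85 and 82.8 FPKM, with 2 of them past it, and the 4 erythroid markers from 185 and 148 to 276.5 and 250.9 FPKM, with 0 past it. The 7 CD4 T-cell markers, which went from 1771 and 1678 to 2070 and 2232 FPKM, had 3 past it. None of these markers was at 0 in the Nudt21 set. Their part in the changes of Bcl2 and Bax was not tested.

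**Figure D4:**
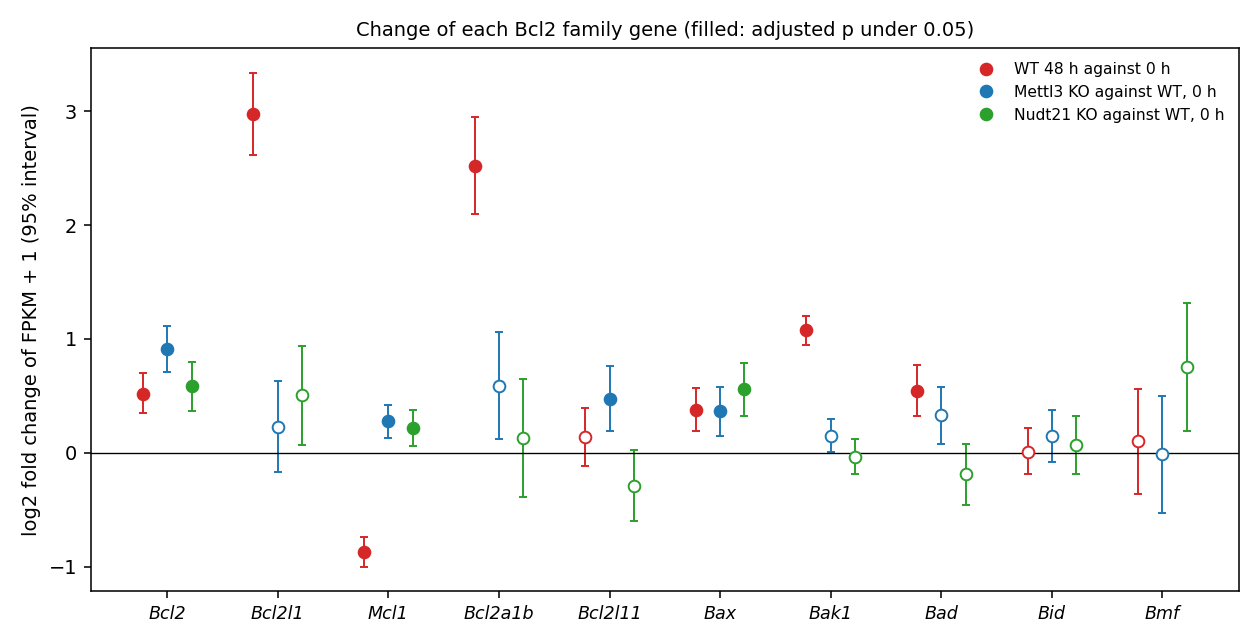
Change of each member on the log2(FPKM + 1) scale with its 95% interval from limma for stimulation, Mettl3 knockout and Nudt21 knockout; filled points are past an adjusted p of 0.05. Bcl2 is filled in all 3 comparisons, at 0.52, 0.91 and 0.59. So are Bax, at 0.38, 0.37 and 0.56, and Mcl1, at -0.87, 0.28 and 0.22.

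Among the other family genes in Nudt21-/-, Bcl2l12 fell from 19.97 and 20.6 to 13.0 and 13.3 FPKM (log2 change -0.59, SE 0.06, adjusted p = 0.000448), although 24.6% of its transcript windows are shared, with Gm15545 and Irf3 on the opposite strand. Pmaip1 went from 0.734 and 0.507 to 2.02 and 1.46 FPKM (log2 change 0.76, SE 0.24, adjusted p = 0.04). That call was lost without any 1 library of the Nudt21 set (adjusted p = 0.0882 to 0.194), any 1 wild type library of the Mettl3 set (0.051 to 0.0608), or the filter on low values (0.106), and with the replicate block (0.0582). Downstream, Xiap, the caspase inhibitor, fell from 10.2 ± 0.378 to 5.81 ± 0.914 FPKM and Endog from 14.7 ± 0.595 to 9.30 ± 0.120 FPKM, while Birc3 rose by 0.39 (adjusted p = 0.0323). Without any 1 Nudt21-set library Birc3 had an adjusted p of 0.0911 to 0.149, with the replicate block 0.0824, with TPM 0.089 and with no filter 0.0741.

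Of the 28 regulators 4 rose and 3 fell, near the 27.8% of all genes that changed. Pim1 rose from 106 ± 7.13 to 150.5 ± 0.598 FPKM (log2 change 0.50), Nfkb1 from 82.4 ± 0.692 to 109.7 ± 2.25 FPKM and Ywhaz from 146 ± 7.13 to 186 ± 8.96 FPKM. Foxo1 fell from 43.5 ± 0.541 to 30.6 ± 0.856 FPKM (log2 change -0.49, adjusted p = 0.00232).

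The knockouts shared no control libraries, and each effect was taken within its own set before the 2 were subtracted. Each knockout is in 1 set only, so a difference between the knockouts and one between the sets cannot be told apart. The difference, the Mettl3 effect minus the Nudt21 effect, had a median of 0.12 over all genes, which was 0.010 with median-ratio scaling and -0.003 with quantile normalization, and member values should be read against it. It passed for 2 of the 10 members, both positive, where 25.3% of all genes passed (17.8% positive and 7.44% negative). Bcl2l11 differed by 0.76 (SE 0.19, adjusted p = 0.0172), from an effect of 0.47 in Mettl3-/- and -0.29 in Nudt21-/-. Leaving out Nudt21-set wild type 1 (0.0526) or 2 (0.0589) or Nudt21-/- 2 (0.0642) put the adjusted p past 0.05, with differences of 0.73 to 0.78.

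Bad differed by 0.52 (SE 0.16, adjusted p = 0.0452), from effects of 0.33 and -0.19 that each missed the threshold. In level the knockouts overlapped, at 9.47 and 8.36 FPKM in Mettl3-/- and 8.285 and 8.79 FPKM in Nudt21-/-. Their wild types lay apart, at 5.69 to 7.70 and at 9.66 and 10.1 FPKM. The log2 difference between those wild types was 0.46, so most of the 0.52 lies between the wild types. The call for Bad was lost in 14 of 22 alternatives. With median-ratio scaling its knockout difference was 0.39 (adjusted p = 0.121) and with quantile normalization 0.29 (adjusted p = 0.328). Without any 1 library of the Nudt21 set its adjusted p was 0.0921 to 0.131, without any 48 h library 0.0564 to 0.0691, and without Mettl3-/- 1 it was 0.0878.

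For Bcl2 the 2 effects, 0.91 and 0.59, differed by 0.32 (95% interval 0.03 to 0.61, adjusted p = 0.101), and without Mettl3-/- 3 by 0.41. Bax effects of 0.37 and 0.56 differed by -0.19 (95% interval -0.51 to 0.12, adjusted p = 0.349), and Mcl1 effects by 0.06 (95% interval -0.16 to 0.27). Bmf effects of -0.01 and 0.75 differed by -0.77 (adjusted p = 0.131), which passed with the replicate block (-0.72, adjusted p = 0.0377) and without resting wild type library 1 of the Mettl3 set (-0.97, adjusted p = 0.047). For Bcl2l1 the difference of -0.27 (adjusted p = 0.486) was -0.60 without Mettl3-/- 3, where the Mettl3-/- group is library 1 alone. For Bcl2a1b the difference of 0.46 (adjusted p = 0.312) was 0.94 without Mettl3-/- 1, where that group is library 3 alone, the one with the higher markers of other cells.

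**Figure D5:**
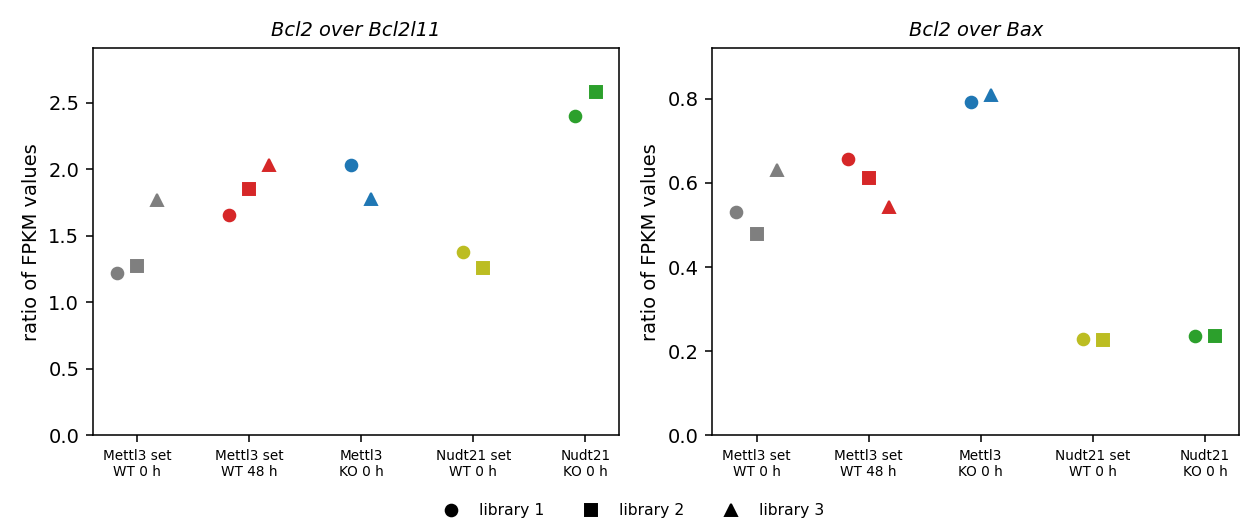
Ratio of Bcl2 FPKM to Bcl2l11 FPKM (left) and to Bax FPKM (right) in each library by group, on linear axes from 0. The Nudt21-/- libraries have the highest ratios of Bcl2 to Bcl2l11 (2.4 and 2.58), and the Mettl3-/- libraries the highest ratios of Bcl2 to Bax (0.792 and 0.808).

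Set against each other within a library, the protector and death transcripts gave different pictures in the 2 knockouts. The ratio of Bcl2 to Bcl2l11 was 1.22, 1.27 and 1.77 in resting wild type and 2.03 and 1.78 in Mettl3-/-, where both genes were higher. It was 1.38 and 1.26 in wild type and 2.4 and 2.58 in Nudt21-/-, where Bcl2 was higher and Bcl2l11 was not. The ratio of Bcl2 to Bax was 0.479 to 0.63 in wild type and 0.792 and 0.808 in Mettl3-/-. In the Nudt21 set it was 0.23 and 0.227 in wild type and 0.237 and 0.235 in the knockout, where both genes were higher by like amounts. At 48 h the 2 ratios were 1.66, 1.85 and 2.03, and 0.656, 0.611 and 0.543. Bcl2l1 over Bak1 went from 0.354 to 0.42 at rest to 1.39, 1.78 and 1.56 at 48 h. In Mettl3-/- Bcl2 held 21 and 19.7% of the protector pool and in Nudt21-/- 14.1% in both libraries, against 13.3 to 14.9% and 11.1 to 11.3% in their wild types. These ratios are descriptions and were not tested.

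The resting wild types of the 2 sets were not alike in this family. In the Nudt21 set 3 members were higher (Bax, Bak1 and Bad) and 2 lower (Bcl2 and Bcl2l11), where 26.0% of all genes differed (18.7% higher and 7.31% lower). The median was -0.04 over the members and 0.08 over all genes. Bax was at 110.5 and 104 FPKM against 59.95 to 69.1 FPKM (log2 difference 0.72, SE 0.10, adjusted p = 0.00162). Bak1 was at 26.2 and 26.9 FPKM against 18.3 to 19.4 FPKM (0.47, SE 0.06, adjusted p = 0.00182). Bcl2 was lower, at 25.5 and 23.5 FPKM against 30.9 to 37.8 FPKM (-0.50, SE 0.09, adjusted p = 0.00453). For these 3 genes the difference held in each alternative tried, and for Bax it was larger than the estimates of both knockout effects (0.37 and 0.56).

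Bad was at 9.66 and 10.1 FPKM against 5.69 to 7.70 FPKM (0.46, adjusted p = 0.0148), a call lost without either Nudt21-set wild type library (0.0871 and 0.0897). Bcl2l11 was at 18.4 and 18.8 FPKM against 21.3 to 30.1 FPKM (-0.41, adjusted p = 0.0409). That call was lost in 9 of 21 alternatives: without Mettl3-set wild type 1 at rest the difference was -0.28 (adjusted p = 0.0839), without wild type 2 -0.43 (0.0682), without 48 h library 2 -0.41 (0.0555), and without any 1 Nudt21-set library -0.42 to -0.40 (0.0557 to 0.191). Mcl1, Bcl2l1, Bcl2a1b, Bid and Bmf did not pass, with estimates between -0.27 and 0.06. All 7 B-cell markers and all 3 tested erythroid markers were higher in the Nudt21 set (the 4 erythroid markers summed to 185 and 148 FPKM, against 8.32 to 15.3 FPKM), and their part was not tested. The set and the wild type group cannot be told apart, so each knockout was compared within its own set.

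In that comparison Bcl2l12 was the 1 relative to differ, at 20.3 ± 0.456 against 14.8 ± 0.886 FPKM. Downstream 3 of 15 genes were higher and 1 lower, among them Htra2 (20.6 ± 0.518 against 13.3 ± 0.547 FPKM) and Xiap, which was lower (10.2 ± 0.378 against 16.8 ± 1.51 FPKM). Of the 28 regulators 6 were higher and 3 lower, where 26.0% of all genes differed, including Pim1 (0.40) and Foxo1 (-0.39; adjusted p = 0.0578 without wild type 1 of the Nudt21 set).

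Over the 5 groups Bcl2 was highest in Mettl3-/-, followed by 48 h. Next came Nudt21-/- and the resting wild type of the Mettl3 set (37.3 ± 0.611 and 35.1 ± 3.67 FPKM, overlapping), and last the wild type of the Nudt21 set. This order was not particular to Bcl2, as the group means of Tgif1 below had it too. The 3 genes closest to this pattern, by the root mean square difference of centred group means of log2(FPKM + 1), were Phldb1 (0.138), Tgif1 (0.139) and Gpr160 (0.149), beside a range of 1.41 for Bcl2 itself. Tgif1 had 11.3, 16.7, 19.7, 9.30 and 13.5 FPKM in resting wild type, 48 h, Mettl3-/-, Nudt21-set wild type and Nudt21-/-. For Bcl2l11, with a range of 1.17, they were Gm26510 (0.024), Cmc1 (0.067) and Ranbp2 (0.069). Gm26510 followed it at 4.74, 4.91, 6.72, 3.20 and 2.42 FPKM in the same order of groups. The likeness is over 5 group means of the same libraries and is a description.

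Letters in the transcripts were counted because one deleted enzyme reads a short motif and the other factor acts near poly(A) signals. In the longest coding transcript of each gene in GENCODE M21, the core GGACT of the METTL3 target motif occurred 2.73 times per kilobase in Bax, 2.34 in Mcl1, 1.25 in Bcl2 and 0.993 in Bcl2l11, the members that rose in Mettl3-/-. It occurred 1.96 times in Bad, 1.94 in Bmf, 1.83 in Bid, 1.68 in Bak1 and 1.17 in Bcl2l1, which did not pass there, so the rates of the called and the other members overlapped. The median over 21877 protein-coding genes was 1.01 per kilobase. Bcl2a1b, the shortest at 817 bases, had 0. The poly(A) signal letters AATAAA occurred 7 times in the 7191 bases of Bcl2, 5 times in the 3418 bases of Mcl1 and 0 times in the 1100 bases of Bax. Bcl2 and Bax, the 2 members whose rise held throughout the alternatives in Nudt21-/-, lay at opposite ends of the members in length and in this count, apart from Bcl2a1b in length. The count grows with length. Per kilobase, Bcl2 (0.973) lay below Mcl1 (1.46) and Bcl2a1b (1.22), and Bax was at 0. Methylation and 3′ ends were not measured in these files.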

How the data were processed

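The authors deposited 1 table of FPKM values per gene for 12 libraries. Per the labels' protocols, libraries were made with the NEBNext Ultra RNA kit and read as pairs, and per the submitters' processing notes Bowtie and the mm10 genome were used, for which they give neither a version nor a role. The program behind the FPKM, its annotation and its strand setting are not given in the sources used here. FPKM are not counts, low values gave no whole reads, and so no count test was run.

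Groups came from the sample titles. limma 3.58.1 in R 4.3.3 fitted log2(FPKM + 1) by group with a trended variance (7 residual degrees of freedom, median prior 2.64) over the 12511 genes that reached 1 FPKM in 2 or more libraries; 19774 genes were put aside. The method was also run on simulated data. These gave all genes and libraries 1 common spread, so they do not show how calls fare where libraries differ, as in Mettl3-/-. Coordinates and transcripts came from GENCODE M21, which held 32235 of the 32285 genes, and promoters from RefSeq. Alternatives were other pseudocounts, filters and scalings, library weights, fits of only the groups compared, the replicate number as a block, and each library left out.

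Libraries of the same number in the wild type at 0 h and 48 h deviated together (correlations 0.261, 0.228 and 0.319), so the alternative with the replicate block took their numbers as pairs. The pairing is read from the data, and the main fit did not use it. The members and lists were chosen with earlier results of these data known. All members and other family genes are given by name, and of the other lists up to 4 genes past the threshold by smallest p. A gene of the downstream list and a naive T-cell marker are not reported here.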

Additional observations from a re-analysis of the deposited data

Results flagged for a closer look

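The effects of the 2 knockouts differed, by the test of the difference itself, for 2 members and 8 genes of the lists, where 25.3% of all genes passed, a larger share than among the members or the lists. Each value is the Mettl3 effect minus the Nudt21 effect on the log2 scale, beside a median of 0.12 over all genes. Each knockout is in 1 set only, so knockout and set cannot be told apart in these values. Among the family the difference was 0.76 for Bcl2l11, 0.52 for Bad and 0.66 for Bcl2l12 (adjusted p = 0.00138), whose effects were 0.07 and -0.59. Among the downstream genes it was 0.97 for Endog (adjusted p = 0.00118; effects 0.36 and -0.61), 0.72 for Xiap (effects -0.00 and -0.72) and 0.26 for Vdac2 (adjusted p = 0.0334; 0.12 and 0.323 with median-ratio scaling). Endog is a nuclease kept in the mitochondrion and Xiap restrains caspases. Between the resting wild types, Nudt21 set minus Mettl3 set, the differences were -0.41 for Bcl2l11, 0.46 for Bad and 0.43 for Bcl2l12. They were 0.38 for Endog, -0.67 for Xiap and -0.05 for Vdac2.

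Among the regulators the difference was 0.74 for Bag3, a partner of BCL2 (adjusted p = 0.0207; 0.0827 without Nudt21-set wild type 1 and 0.067 without Nudt21-/- 2), and 0.42 for Fbxw7 (adjusted p = 0.0107; 0.21 and 0.213 with quantile normalization). It was -0.59 for Ywhaz (adjusted p = 0.00192; effects -0.25 and 0.35) and -0.58 for Dynll1, whose protein tethers BIM (adjusted p = 0.0467). Dynll1 missed the threshold in 16 of 23 alternatives (adjusted p = 0.0551 to 0.17), among them that without Nudt21-set wild type 2, where it was -0.37 (0.159). Vdac2 missed it in 14 of 23, including each that left out 1 Nudt21-set library (0.0522 to 0.129), and Bag3 in 5 of 23.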

How the results depend on the processing

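Over the comparisons, 1016 of 1105 member values kept their direction and their side of the threshold under the alternatives, 31 gained a call and 58 lost one; for the other genes named or listed these numbers were 3309 of 3520, 73 and 137, and 1 reversed, Bcl2l13 on stimulation (-0.0043 with quantile normalization against 0.14). The 4 members that rose in Mettl3-/- became 1 with library weights, 1 in a fit of only the groups compared and 2 with the replicate block, and the 3610 genes called became 1094 with weights and 1417 with only those groups. In Nudt21-/- the 3 members became 5 with weights and 6 with only those groups, and the 3475 genes 5540 with weights. For the difference between knockouts the 2 members became 1 with no filter, with median-ratio scaling, with quantile normalization and with only those groups, and 0 with weights, and the 3164 genes became 2035 with weights. The cause was not tested.

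Leaving out 1 library gave 7 to 8 members and 9309 to 10101 genes on stimulation, 3 to 5 and 2576 to 4689 in Mettl3-/-, 2 to 5 and 1287 to 4736 in Nudt21-/-, 0 to 4 and 1713 to 4376 for the difference, and 3 to 5 and 646 to 4251 between resting wild types. Where this left a group with 1 library, that library was assumed to vary like the other groups. The 0 came without either Nudt21-set wild type or Nudt21-/- 2.

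The replicate block changed no member call on stimulation. Between the Mettl3 genotypes only 2 numbers are shared (correlations 0.143 and 0.219), so that block is given as an alternative. In the Nudt21 set same-numbered libraries had a correlation of -0.120, and with its numbers crossed, an alternative chosen after seeing the data, 3 members and 2952 genes were called in Nudt21-/-. Read depth is unknown, which limits low genes such as Bmf most.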
